A study of Mus musculus with 9 samples.

Results

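Glycolysis and its control by oxygen were followed through 38 genes in cultured and primary dental papilla cells of C57BL/6 mice. The genes were taken by name from the deposited table of 53353 entries, and all 38 have a row. They cover glucose uptake, each step from glucose to lactate, the regulators of those steps, and the hypoxia-inducible factor (HIF) system with its well-known targets. Of these, 36 had counts and passed the filter on low counts, whereas Hif1a and Adm were listed at 0 in every library.

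Each group held 3 RNA sequencing libraries. Spheres were grown for 8 days on low-attachment plates, from cells at passage 2, in basal medium with methylcellulose. Monolayer cells grew on plates in medium with 2% serum and 1% growth supplement, for 8 days by the source label and 14 days by the growth protocol. The primary cells are labelled as such, with no culture time, and the design text names the third group DPC P2. No genetic change is given for any group, the age of the animals is not given in the sources used here, and medium, serum and format differ together between spheres and monolayer. The labels do not state whether replicate libraries derive from different mice or dishes, so p-values measure only the spread between libraries, which may be technical.

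Glycolysis splits glucose into pyruvate in the cytosol and yields ATP without oxygen; lactate dehydrogenase then turns pyruvate into lactate, which leaves the cell with a proton. When oxygen is present, prolyl hydroxylases of the Egln family mark the HIF alpha subunits for destruction. When oxygen falls, the stabilized subunits pair with Arnt and switch on genes of glucose uptake, glycolysis, pH control and vessel growth, and also the hydroxylase genes themselves. The dental papilla, the mesenchyme that forms pulp and odontoblasts, is a vascularized tissue in the animal.

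Total counts per library ran from 35957376 to 52047254, and levels are in CPM, a gene's counts brought to one common library total after TMM scaling, which compare libraries and not genes. Dental mesenchyme markers, of which 13 of 13 were detected in each group, summed to 29420 to 31370 CPM in spheres, 89670 to 98840 CPM in monolayer and 46640 to 48030 CPM in primary cells, mostly Col1a1. Of the 13, 3 rose and 9 fell in spheres against monolayer, 4 rose and 9 fell in spheres against primary cells, and 8 rose and 5 fell in monolayer against primary cells. Of all genes, 40.7% and 37.7%, 38.9% and 40.6%, and 34.4% and 36.9% rose and fell in these comparisons. Epithelial markers summed to 59.6 to 63.5 CPM in spheres, 9.28 to 9.75 CPM in monolayer and 200.1 to 205 CPM in primary cells, with Krt15 at 0 in both cultures. Epcam went against this sum, at 42.9 CPM in spheres, 0.0255 CPM in monolayer and 2.87 CPM in primary cells, while the other 8 tested epithelial markers were highest in primary cells. Macrophage markers summed to 44.1 to 46.4, 9.92 to 11.1 and 23.3 to 24.5 CPM in the same order of groups, and none of the 8 was at 0. Endothelial markers summed to 5.12 to 5.40, 28.6 to 30 and 14.1 to 16 CPM, with Cdh5 and Tie1 at 0 in spheres and Cldn5 at 0 in monolayer. Kdr made up most of the sum outside spheres, at 0.402, 27.5 and 13.2 CPM, whereas Vwf, at 4.13, 0.730 and 0.467 CPM, and Pecam1, at 0.540, 0.0981 and 0.403 CPM, had their highest mean in spheres. Neural markers summed to 17.2 to 20, 26.0 to 29.1 and 15.5 to 18.4 CPM, with Snap25 at 0 in monolayer. Of 4 tested neural markers, 3 rose and 1 fell in spheres against monolayer, and 1 rose and 3 fell in monolayer against primary cells. In spheres against primary cells 1 rose and 1 fell. Most of the 4 therefore went against the higher sum in monolayer. Muscle markers stayed at or below 4.50 CPM, with Myod1 and Myh2 at 0 in all groups, and erythroid markers at or below 1.09 CPM, with Hbb-bs and Hbb-bt at 0 in all groups. Tubb3, Gfap, Acta1 and Alas2 are also listed at 0, but lie wholly within other table entries, so these zeros are not read as absence. The part of these cells in the results below was not tested, and in bulk RNA fewer cells of a type and less RNA per cell cannot be told apart.

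Monolayer cells had the lowest level of most glycolysis and hypoxia genes. By group mean, 27 of the 36 measured genes were lowest in monolayer, 6 in primary cells and 3 in spheres, whereas 33.7% of all 15675 tested genes were lowest in monolayer. The highest mean lay in spheres for 20 genes, in primary cells for 15 and in monolayer for 1, which was Slc2a3, where all genes gave 39.3%, 31.1% and 29.7%. Summed over all members, the level was 7736 to 7843 CPM in spheres, 4169 to 4396 CPM in monolayer and 6770 to 6893 CPM in primary cells, and the 3 ranges did not overlap. Pkm alone gave 2150 ± 12.4 CPM of this sum in spheres, 1272 ± 45.5 CPM in monolayer and 1704 ± 23.9 CPM in primary cells (SD, n = 3 each).

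**Figure D1:**
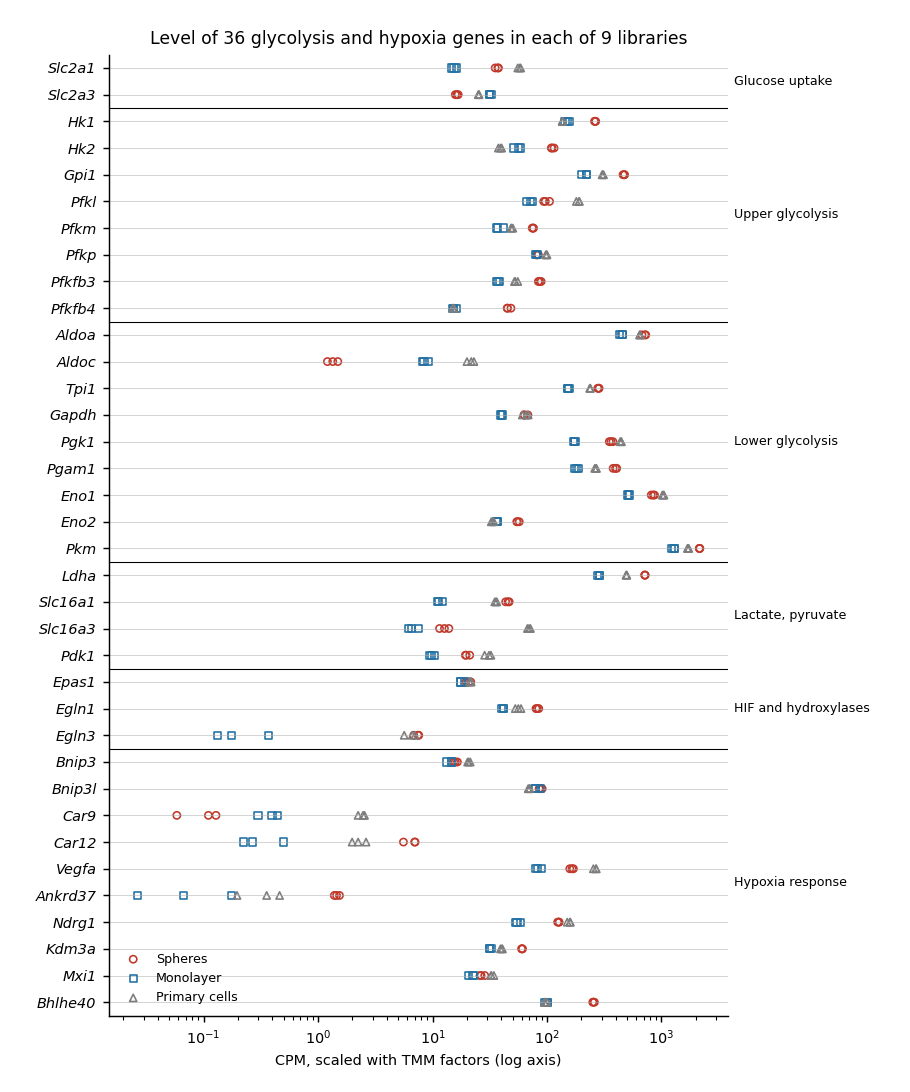
Level of the 36 measured genes in each library, as CPM on a log axis, with genes in rows grouped by role. Circles are spheres, squares monolayer and triangles primary cells, 3 libraries each; the squares lie leftmost for 27 genes by group mean, and Aldoc, Car9, Egln3, Car12 and Ankrd37 spread widest between the groups.

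Spheres were first set against the monolayer. With edgeR's quasi-likelihood test, 32 of 36 genes rose in spheres, 3 fell and 1 did not pass, at an adjusted p of 0.05 over all genes tested. Among all genes, 40.7% rose and 37.7% fell (78.4% in either direction), and 34 of the 36 genes had non-overlapping groups, compared with 78.3% of all. The median log2 change of the genes was 0.95, against 0.04 over all tested genes. A rise beyond 2-fold passed the test for 13 genes and a fall beyond 2-fold for 2, against 12.6% and 15.4% of all genes.

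Spheres were next set against the primary cells, where the genes went both ways. Here 19 rose, 14 fell and 3 did not pass, against 38.9% higher and 40.6% lower of all genes (79.6% in either direction). The share that fell, 38.9%, is near that of all genes, and 33 of the 36 had non-overlapping groups, against 81.2% of all. The median log2 change was 0.21, against -0.02 over all tested genes. Beyond 2-fold, 5 genes rose and 3 fell, against 11.3% and 16.5% of all genes.

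Monolayer cells differed from primary cells mostly downward. Here 29 of 36 genes fell, 5 rose and 2 did not pass, with 34 of the 36 in non-overlapping groups (74.4% of all genes), whereas 36.9% of all genes fell and 34.4% rose (71.3% in either direction). The median log2 change was -0.58, against -0.03 over all tested genes. A fall beyond 2-fold passed for 12 genes and a rise for 0, against 7.82% and 6.18% of all genes. At the plain test the 5 that rose were Slc2a3, Hk1, Hk2, Eno2 and Bnip3l.

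The scale matters for small changes against the monolayer, whose 10 most abundant genes took 17.1 to 17.8% of counts, where the sphere libraries had 9.87 to 9.99% and the primary libraries 11.5 to 11.7%. Scaling to total counts moved the median gene by 0.31 (log2) in spheres against monolayer, and by -0.30 in monolayer against primary cells. On that scale 33 genes rose and 3 fell in spheres against monolayer (55.0% and 26.6% of all genes), and 1 rose and 33 fell in monolayer against primary cells (19.4% and 56.5% of all genes). Of all called genes, 67.4% in place of 51.9% were higher in spheres than in monolayer, and 25.6% in place of 48.2% were higher in monolayer than in primary cells. Changes against the monolayer below about these shifts therefore depend on the scale.

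**Figure D2:**
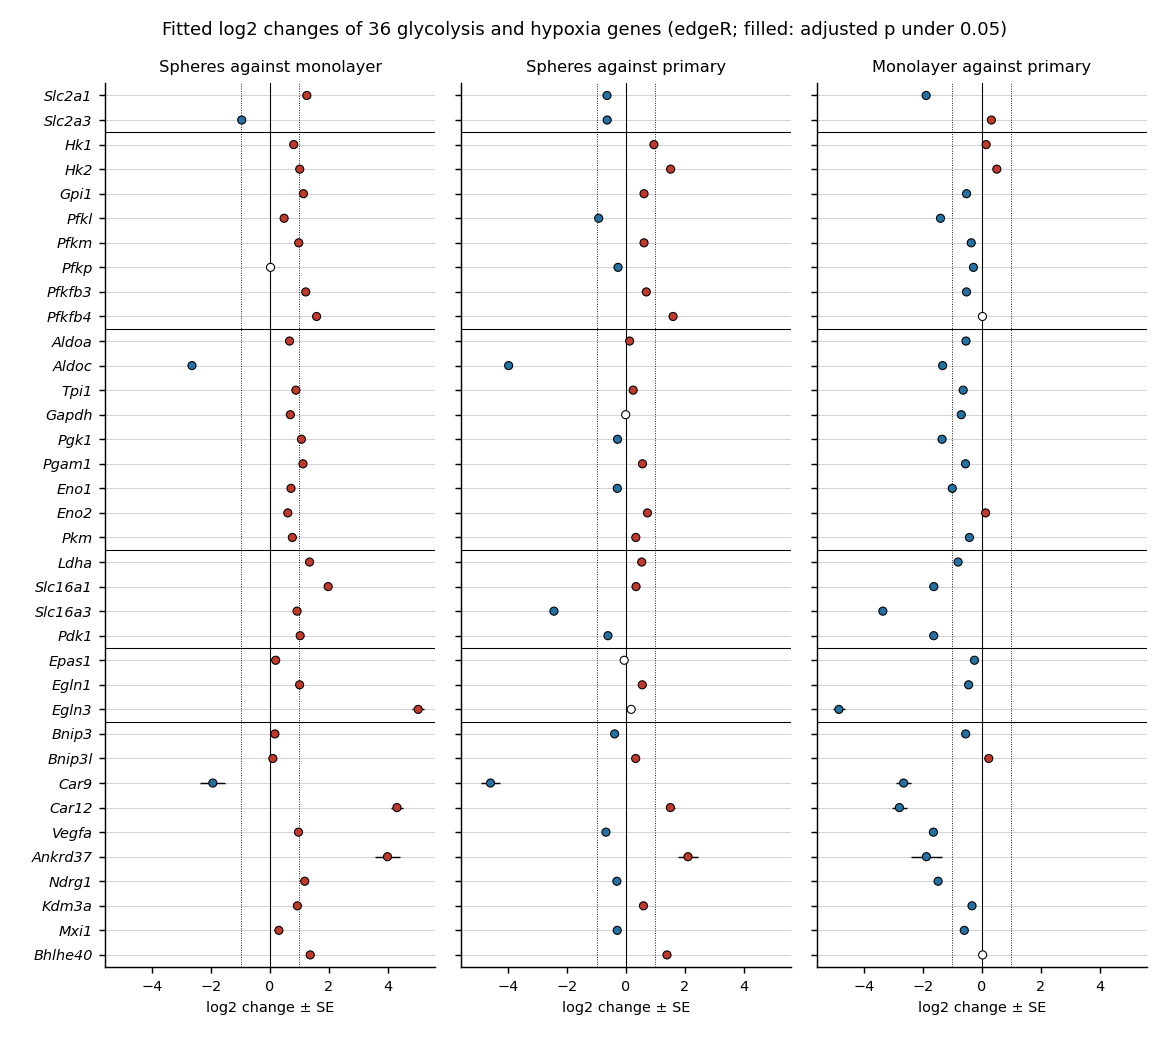
Fitted log2 change with its standard error for the 36 genes (rows) in spheres against monolayer, spheres against primary cells and monolayer against primary cells. Red marks a rise and blue a fall at an adjusted p under 0.05 (edgeR), open circles did not pass, and dotted lines mark 2-fold; 32 points lie right and pass in the left panel, 19 in the middle and 5 in the right one.

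The promoters of the genes that moved most are shown for the HIF core motif, searched as ACGTG or GCGTG on both strands in the 250 bases before the RefSeq start site (GRCm38.p6). The windows are those of the 3 largest rises in spheres against monolayer, Egln3, Car12 and Ankrd37, and the 3 largest falls in spheres against primary cells, Car9, Aldoc and Slc16a3. In the Aldoc and Car9 windows 105 and 60 bases lie in GENCODE exons, so that only 30 bases around the match are printed for these. Capitals mark the motif, and each sequence reads 5′ to 3′ on the strand of the gene.
Egln3, chr12:54203875-54204124, minus strand: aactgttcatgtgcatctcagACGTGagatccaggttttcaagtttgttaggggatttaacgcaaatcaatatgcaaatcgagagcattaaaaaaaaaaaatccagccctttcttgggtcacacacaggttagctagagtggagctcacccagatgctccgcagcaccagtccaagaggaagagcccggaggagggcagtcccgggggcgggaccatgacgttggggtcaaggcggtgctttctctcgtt
Car12, chr9:66713436-66713685, plus strand: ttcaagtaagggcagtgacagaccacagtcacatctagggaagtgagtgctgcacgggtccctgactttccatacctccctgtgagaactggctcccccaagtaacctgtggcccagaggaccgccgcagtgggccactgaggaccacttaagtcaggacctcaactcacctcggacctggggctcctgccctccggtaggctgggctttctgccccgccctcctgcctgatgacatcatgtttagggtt
Ankrd37, chr8:45999851-46000100, minus strand: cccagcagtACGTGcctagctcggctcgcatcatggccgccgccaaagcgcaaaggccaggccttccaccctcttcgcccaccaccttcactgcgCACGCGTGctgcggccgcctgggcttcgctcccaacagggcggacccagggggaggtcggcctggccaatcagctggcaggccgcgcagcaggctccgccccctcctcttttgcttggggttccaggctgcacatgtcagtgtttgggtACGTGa
Car9, chr4:43506996-43507025, plus strand: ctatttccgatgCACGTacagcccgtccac
Aldoc, chr11:78323011-78323040, plus strand: ccacctctgaggGCGTGgccttaccctaga
Slc16a3, chr11:120948817-120949066, plus strand: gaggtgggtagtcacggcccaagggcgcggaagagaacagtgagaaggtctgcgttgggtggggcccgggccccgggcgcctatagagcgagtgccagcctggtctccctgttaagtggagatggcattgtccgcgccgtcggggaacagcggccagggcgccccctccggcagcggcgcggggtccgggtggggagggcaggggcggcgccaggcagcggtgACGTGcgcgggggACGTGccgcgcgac

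The motif stood in 5 of these 6 full windows, and these letters are not in the Car12 window. The rises and falls come from different comparisons. In spheres against monolayer Slc16a3 rose 1.89-fold, while Car9 and Aldoc fell. The 6 windows therefore do not compare rising with falling genes. Of 33 members with a RefSeq window, 24 held ACGTG or GCGTG (72.7%), against 38.6% of 27025 genes with a window. ACGTG alone was in 15 (45.5%), against 16.5%, and CACGTG, which contains ACGTG on both strands, in 5 (15.2%), against 6.04%. In Car9 the match began 18 bases before the RefSeq start site, and in Slc16a3 the matches began 27 and 14 bases before it. The Car9 and Aldoc matches lie inside the spans of these genes in the count table, which start at 43506966 and 78322968. Where a gene had several windows, the one nearest the start in the count table was taken for the members, and the outermost one for all genes. The nearest window could still lie inside the listed span. This holds for Ankrd37, whose span starts at 46005707 on the minus strand, and for Slc16a3, whose span starts at 120948480. The members were chosen to include well-known HIF targets, so their higher shares are partly built into the list. The genes compared were not matched to them for expression or base content. The motif matches describe letters in a window and are not evidence of binding.

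Glucose uptake differed between the 2 transporters. Slc2a1, which encodes GLUT1, the widespread glucose transporter (chromosome 4, 119108711 to 119137983), was at 35.3, 37.7 and 37.2 CPM in spheres, 16.2, 14.7 and 15.4 CPM in monolayer, and 55.6, 57.9 and 58.9 CPM in primary cells. Its 3 groups did not overlap, with primary cells highest and monolayer lowest. It was 2.38-fold higher in spheres than in monolayer (log2 change 1.25, SE 0.054, adjusted p = 1.81e-17) and 1.56-fold lower in spheres than in primary cells (adjusted p = 2.03e-12). Other table entries cover 61.3% of its exon bases. Slc2a3, which encodes GLUT3, a transporter of high affinity, was at 16.8, 16.3 and 15.8 CPM in spheres, 31.4, 31.5 and 32.4 CPM in monolayer, and 25.3, 25.1 and 25.5 CPM in primary cells. This gene ran the other way, highest in monolayer and lowest in spheres, with no overlap; it fell 1.95-fold in spheres against monolayer (adjusted p = 4.92e-15). Its 1.25-fold rise in monolayer against primary cells (adjusted p = 3.08e-06) was lost when scaled to total counts (adjusted p = 0.621). Slc2a1 therefore took 67.8 to 70.2% of the counts of the pair in spheres, 31.8 to 34.1% in monolayer and 68.7 to 69.8% in primary cells.

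The first steps of glycolysis were highest in spheres for 6 of 8 genes, against 39.3% of all genes. Hexokinases trap glucose in the cell by phosphorylation. Hk2, the inducible form, was at 109, 111 and 115 CPM in spheres, 56.2, 51.6 and 58.8 CPM in monolayer, and 37.6, 40.2 and 39.2 CPM in primary cells. The groups did not overlap, and primary cells were lowest; Hk2 rose 2.01-fold in spheres against monolayer (adjusted p = 3e-17) and 2.86-fold against primary cells (adjusted p = 4.96e-21). Hk1, the constitutive form, had 263 ± 2.98 CPM in spheres, 151 ± 6.93 CPM in monolayer and 136 ± 0.693 CPM in primary cells, and so also rose in spheres, 1.75-fold and 1.93-fold. In monolayer against primary cells Hk1 rose by only 0.15 on the log2 scale, and it fell by 0.15 when scaled to total counts. Gpi1, which converts glucose phosphate to fructose phosphate, rose 2.19-fold in spheres against monolayer and 1.53-fold against primary cells, at 470 ± 7.41 CPM in spheres.

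Phosphofructokinase, the committed step, is built from 3 kinds of subunit that moved apart. Pfkl, the liver type, was at 93.6, 96.7 and 105 CPM in spheres, 71.7, 66.5 and 74.2 CPM in monolayer, and 181, 190 and 192 CPM in primary cells. The primary libraries stood above all cultured ones; Pfkl was 1.9-fold lower in spheres (adjusted p = 1.16e-16) and 2.65-fold lower in monolayer (adjusted p = 6.65e-20) than in primary cells. Pfkm, the muscle type, was highest in spheres at 75.4 ± 0.929 CPM, against 38.4 ± 3.04 CPM in monolayer and 49.3 ± 0.921 CPM in primary cells. Pfkp, the platelet type, had 82.1 ± 1.77 CPM in spheres and 81.1 ± 1.19 CPM in monolayer, overlapping and not passing (log2 change 0.02, adjusted p = 0.694), and 98.8 ± 1.23 CPM in primary cells. Scaled to total counts, Pfkp rose in spheres by 0.32 on the log2 scale.

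Of the bifunctional enzymes that make and remove an allosteric activator of phosphofructokinase, Pfkfb3 and Pfkfb4 rose in spheres. Outside the 38 genes and at low levels, Pfkfb1 fell in spheres by 0.71 on the log2 scale against monolayer (adjusted p = 0.00413) and by 1.45 against primary cells (adjusted p = 3.08e-07), and Pfkfb2 did not pass in either comparison (adjusted p = 0.0842 and 0.843); both are named with their values known. Pfkfb4 (chromosome 9, 108991778 to 109032228) was at 45.0, 45.2 and 48.4 CPM in spheres, 15.2, 15.1 and 16.1 CPM in monolayer, and 15, 15.4 and 15.3 CPM in primary cells. Every sphere library stood above the others, while monolayer and primary cells overlapped. The rise was 2.99-fold against monolayer (adjusted p = 1.35e-19) and 3.03-fold against primary cells (adjusted p = 7.42e-20); monolayer and primary cells did not differ by the test (adjusted p = 0.773), though scaled to total counts Pfkfb4 fell in monolayer by 0.28 on the log2 scale. Pfkfb3 had 86.4 ± 2.43 CPM in spheres, 37.3 ± 1.16 CPM in monolayer and 53.4 ± 1.92 CPM in primary cells, 2.32-fold and 1.62-fold higher in spheres.

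In lower glycolysis 8 of 9 genes rose and Aldoc fell in spheres against monolayer, where 40.7% of all genes rose and 37.7% fell. The smallest and largest rises were those of Eno2 (1.52-fold) and Pgam1, phosphoglycerate mutase (2.17-fold). Against primary cells 5 of the 9 rose, 3 fell and 1 did not pass, against 38.9% higher and 40.6% lower of all genes. Pgk1, phosphoglycerate kinase, the first ATP-yielding enzyme, was at 376, 362 and 350 CPM in spheres, 176, 171 and 173 CPM in monolayer, and 446, 435 and 445 CPM in primary cells. Its groups did not overlap and primary cells led; it was 2.09-fold higher in spheres than in monolayer and 1.22-fold lower than in primary cells. Eno1, the common enolase, showed the same order at 844 ± 27.8 CPM in spheres, 516 ± 8.96 CPM in monolayer and 1034 ± 16.5 CPM in primary cells. Aldoa, Tpi1, Pgam1 and Pkm were instead highest in spheres, by 1.09-, 1.19-, 1.48- and 1.26-fold over primary cells. Other entries cover 61.2% of the exon bases of Aldoa.

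Aldoc, the brain-type aldolase (chromosome 11, 78322968 to 78327781), went the other way from the rest of lower glycolysis in spheres against monolayer. It was at 1.21, 1.35 and 1.49 CPM in spheres, 8.44, 8.19 and 9.12 CPM in monolayer, and 23, 20 and 21.8 CPM in primary cells. Each group stood apart, with spheres lowest and primary cells highest. It was 6.29-fold lower in spheres than in monolayer (log2 change -2.65, SE 0.11, adjusted p = 1.86e-17), 15.9-fold lower in spheres than in primary cells (adjusted p = 2.36e-22) and 2.52-fold lower in monolayer than in primary cells (adjusted p = 5.74e-14). Aldoc took 0.179 to 0.207% of the counts of both aldolases in spheres, 1.83 to 1.96% in monolayer and 3.01 to 3.39% in primary cells. Eno2, the neuronal enolase, held a larger share of the pair with Eno1 in both cultures than in primary cells, at 6.09 to 6.28% of the pair in spheres, 6.53 to 6.77% in monolayer and 3.09 to 3.21% in primary cells. Eno2 rose in monolayer against primary cells by 0.13 on the log2 scale (adjusted p = 0.0136, and 0.0741 without primary library 2), and fell by 0.17 when scaled to total counts.

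Gapdh, glyceraldehyde phosphate dehydrogenase, cannot be read as a level. It had 64.8 ± 2.87 CPM in spheres, 40.1 ± 0.965 CPM in monolayer and 65.1 ± 3.9 CPM in primary cells. In the GENCODE M21 transcripts, 73 other genes match its transcript over at least 200 bases at 95% identity or more, 70 of them pseudogenes, and these held 94441 counts over the 9 libraries, against 23943 for Gapdh. Its share of the counts of itself and its copies was 19.5 to 20.9% in spheres, 18 to 21.2% in monolayer and 20.4 to 21.6% in primary cells. Spheres and primary cells overlapped and did not differ by the test (log2 change -0.01, adjusted p = 0.865). For the other 7 genes with such copies, Tpi1, Pgk1, Pgam1, Eno1, Pkm, Bnip3 and Bnip3l, the gene itself held 88.9% or more of the counts in every library. The copies match between 19.3% (Tpi1) and 94.2% (Bnip3) of the transcript, with 85.6% for Eno1. Because the multi-mapping setting is not known, this share cannot show whether reads were lost from gene and copy alike. Among the 17 genes with neither a copy nor an exon under another entry, 15 rose and 2 fell in spheres against monolayer (40.7% and 37.7% of all genes), 9 rose and 6 fell in spheres against primary cells (38.9% and 40.6%), and 3 rose and 13 fell in monolayer against primary cells (34.4% and 36.9%).

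Ldha was highest in spheres, and the 2 lactate transporters were ordered differently across the groups. Ldha, which makes lactate from pyruvate (chromosome 7, 46841475 to 46855627), was at 720.1, 716 and 714 CPM in spheres, 286, 275 and 286 CPM in monolayer, and 498, 490.4 and 495 CPM in primary cells. Spheres were highest with no overlap, 2.54-fold over monolayer (adjusted p = 4.05e-24) and 1.45-fold over primary cells (adjusted p = 2.69e-15).

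Slc16a1 encodes MCT1, a monocarboxylate transporter that carries lactate either way across the membrane (chromosome 3, 104638668 to 104658462). It was at 43.6, 46.7 and 45.7 CPM in spheres, 11.3, 12.2 and 11 CPM in monolayer, and 36.5, 35.8 and 35.0 CPM in primary cells. Monolayer stood far below both; Slc16a1 was 3.93-fold higher in spheres than in monolayer (log2 change 1.98, SE 0.056, adjusted p = 1.36e-21) and 1.27-fold higher in spheres than in primary cells.

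Slc16a3 encodes MCT4, the exporter typical of highly glycolytic cells and a HIF target (chromosome 11, 120948480 to 120960868). It was at 11.5, 13.9 and 12.7 CPM in spheres, 6.20, 6.59 and 7.56 CPM in monolayer, and 71.7, 69.7 and 67.5 CPM in primary cells. Both cultures lay far below primary cells, with no overlap among the groups. It was 5.45-fold lower in spheres (log2 change -2.45, SE 0.062, adjusted p = 1.45e-22) and 10.3-fold lower in monolayer (adjusted p = 6.84e-24) than in primary cells, and 1.89-fold higher in spheres than in monolayer (adjusted p = 5.57e-11). Slc16a3 thus held 20.9 to 22.9% of the counts of this pair in spheres, 35.0 to 40.6% in monolayer and 65.8 to 66.3% in primary cells. The summed epithelial markers were also highest in primary cells, although Epcam was highest in spheres, as given above, and their part in this result was not tested.

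Pdk1, a mitochondrial kinase that inhibits pyruvate dehydrogenase and so the conversion of pyruvate to acetyl-CoA, was at 19.7, 19.4 and 21.1 CPM in spheres, 9.77, 10.5 and 9.38 CPM in monolayer, and 32.4, 31.2 and 28.5 CPM in primary cells. Primary cells led and monolayer was lowest, with no overlap. It was 2.03-fold higher in spheres than in monolayer and 1.53-fold lower in spheres than in primary cells (adjusted p = 4.35e-13 and 1.02e-09).

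**Figure D3:**
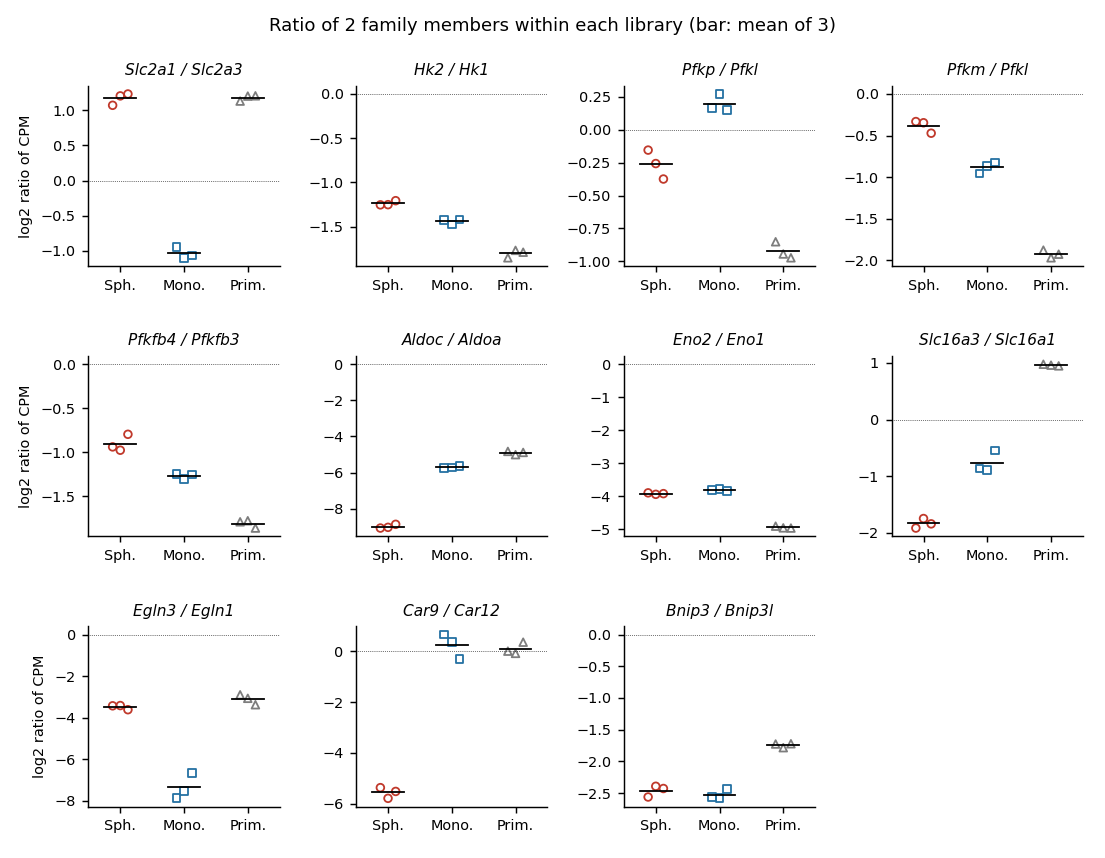
Log2 ratio of the CPM of 2 family members within each library (y axis), for spheres, monolayer and primary cells; points are libraries and bars means of 3. Slc16a3 over Slc16a1 lies at -1.83 in spheres, -0.77 in monolayer and 0.96 in primary cells, and Slc2a1 over Slc2a3 parts monolayer from both other groups.

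Within families, 11 ratios were compared in 3 pairs of groups, with an exact two-sided permutation test whose smallest p is 0.1 with 3 libraries against 3, so that no ratio could pass 0.05. The groups did not overlap in 30 of these 33 comparisons, which is every one but Bnip3 over Bnip3l in spheres against monolayer (difference 0.06, exact permutation p = 0.3), Slc2a1 over Slc2a3 in spheres against primary cells (-0.01, p = 0.9) and Car9 over Car12 in monolayer against primary cells (0.14, p = 0.7). All others gave an exact permutation p of 0.1, or 0.11 adjusted over the 33. Groups of single genes did not overlap for 78.3% of all genes in spheres against monolayer. The shares were 81.2% in spheres against primary cells and 74.4% in monolayer against primary cells. No share was computed for ratios of other gene pairs. The largest difference was that of Car9 over Car12, at -5.79 in spheres against monolayer and -5.65 in spheres against primary cells.

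The HIF system itself could be followed in part. Hif1a, the main oxygen-regulated subunit (chromosome 12, 73901375 to 73947530), lies wholly within the span of another entry. The entries that overlap Hif1a are Gm15283 on the opposite strand and AC124712.1 on the same strand. The vasodilator peptide gene Adm lies wholly within the opposite-strand entry Gm28863. All 6 genes of the lists that lie wholly within another entry had at most 3 counts, so neither 0 is read as absence. Epas1, which encodes HIF-2 alpha (chromosome 17, 86753907 to 86833410), was at 21.6, 20.8 and 19.5 CPM in spheres, 17.7, 17.6 and 18.9 CPM in monolayer, and 21.7, 21.6 and 21.1 CPM in primary cells. Its range was narrow: spheres and primary cells overlapped (log2 change -0.06, adjusted p = 0.352), and it was 1.14-fold higher in spheres than in monolayer (adjusted p = 0.00578).

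Egln3, a prolyl hydroxylase gene that HIF induces (chromosome 12, 54178981 to 54203860), was at 7.58, 7.46 and 6.86 CPM in spheres, 0.133, 0.175 and 0.370 CPM in monolayer, and 7.04, 6.65 and 5.66 CPM in primary cells. All monolayer libraries stood far below the rest, while spheres and primary cells overlapped. It was 32.8-fold higher in spheres than in monolayer (log2 change 5.04, SE 0.21, adjusted p = 7.82e-18) and 29-fold lower in monolayer than in primary cells (adjusted p = 6.29e-17); spheres against primary cells did not pass (log2 change 0.18, SE 0.12, adjusted p = 0.16). Egln1, the main oxygen sensor of the family, changed less, at 82.4 ± 2.26 CPM in spheres, 41.1 ± 0.912 CPM in monolayer and 56.1 ± 3.21 CPM in primary cells, 2.01-fold higher in spheres than in monolayer and 1.47-fold higher than in primary cells.

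Of the HIF partners and regulators outside the 38 genes, 5 of 15 tested rose and 8 fell in spheres against monolayer, 7 rose and 6 fell in spheres against primary cells, and 9 rose and 4 fell in monolayer against primary cells. These are 33.3% and 53.3%, 46.7% and 40%, and 60% and 26.7% of the 15. Of all genes, 40.7% and 37.7%, 38.9% and 40.6%, and 34.4% and 36.9% rose and fell. The split in spheres against primary cells is near that of all genes. Hif3a, an alpha subunit with inhibitory forms, was at 7.22, 7.99 and 6.19 CPM in spheres, 123, 119 and 123 CPM in monolayer, and 80.0, 77.1 and 76.0 CPM in primary cells. Spheres lay far below both other groups, with log2 changes of -4.09 against monolayer (adjusted p = 2.8e-28) and -3.45 against primary cells (adjusted p = 2.09e-26). Arnt2, a partner subunit best known from neurons, had 0.629 ± 0.0623 CPM in spheres, 5.61 ± 0.701 CPM in monolayer and 15.4 ± 0.405 CPM in primary cells.

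Of the 10 measured hypoxia response genes in the last group, 9 rose and 1 fell in spheres against monolayer (40.7% and 37.7% of all genes), 5 rose and 5 fell in spheres against primary cells (38.9% and 40.6%), and 1 rose and 8 fell in monolayer against primary cells (34.4% and 36.9%). The even split against primary cells is near that of all genes. Carbonic anhydrases at the cell surface, which buffer the acid made by glycolysis, moved in opposite directions in spheres against both other groups, and both fell in monolayer against primary cells. Car12 (chromosome 9, 66713686 to 66766845) was at 7.04, 5.57 and 6.99 CPM in spheres, 0.266, 0.225 and 0.502 CPM in monolayer, and 2.24, 2.63 and 1.99 CPM in primary cells. Spheres were highest with no overlap, 19.9-fold over monolayer (log2 change 4.31, SE 0.22, adjusted p = 6.21e-16) and 2.85-fold over primary cells (adjusted p = 1.01e-09); it was 6.98-fold lower in monolayer than in primary cells (adjusted p = 1.38e-10).

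Car9, a standard hypoxia marker (chromosome 4, 43506966 to 43513729), was at 0.129, 0.0585 and 0.110 CPM in spheres, 0.443, 0.2995 and 0.396 CPM in monolayer, and 2.24, 2.47 and 2.55 CPM in primary cells. Primary cells were highest and spheres lowest, with no overlap. These rest on few reads, 5, 3 and 6 counts in the sphere libraries and 20, 12 and 15 in the monolayer libraries, and 31.1% of its exon bases lie under another entry. Car9 was 24.3-fold lower in spheres (log2 change -4.60, SE 0.32, adjusted p = 5.27e-13) and 6.31-fold lower in monolayer (adjusted p = 7.66e-10) than in primary cells. Its fall in spheres against monolayer was 3.85-fold (adjusted p = 0.000178), and without sphere library 2 or monolayer library 1 only 1 gene of the 38, in place of 2, fell beyond 2-fold in that comparison.

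Ankrd37, an ankyrin repeat gene known as a HIF target (chromosome 8, 45996902 to 46005707), was at 1.39, 1.54 and 1.45 CPM in spheres, 0.0665, 0.175 and 0.0264 CPM in monolayer, and 0.356, 0.196 and 0.462 CPM in primary cells. Spheres stood above all other libraries, 15.9-fold over monolayer (log2 change 3.99, SE 0.44, adjusted p = 6.05e-09) and 4.31-fold over primary cells (adjusted p = 3.02e-06). Without monolayer library 2 the log2 change against monolayer was 4.85, a fold over 1.5 times larger. Its monolayer libraries held 3, 7 and 1 counts, and other entries cover 46.0% of its exon bases. Bhlhe40, a transcriptional repressor induced by hypoxia, was at 259, 251 and 255 CPM in spheres, 101, 96 and 99.98 CPM in monolayer, and 95.8, 100.1 and 95.1 CPM in primary cells. The sphere libraries stood apart, 2.58-fold over monolayer and 2.63-fold over primary cells (adjusted p = 1.15e-22 and 7.68e-23). Monolayer and primary cells overlapped (adjusted p = 0.483), though scaled to total counts Bhlhe40 fell in monolayer by 0.27 on the log2 scale.

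Vegfa, the main angiogenic growth factor (chromosome 17, 46016993 to 46032369), was at 158, 166 and 170.1 CPM in spheres, 83.0, 79.8 and 90.0 CPM in monolayer, and 269, 254 and 267 CPM in primary cells. Primary cells led and monolayer was lowest, with no overlap. Vegfa was 1.95-fold higher in spheres than in monolayer (adjusted p = 1.57e-17), 1.6-fold lower in spheres than in primary cells (adjusted p = 1.6e-14) and 3.13-fold lower in monolayer than in primary cells (adjusted p = 4.56e-22). Ndrg1, a stress-induced gene, kept that order at 126 ± 1.84 CPM in spheres, 55.7 ± 2.62 CPM in monolayer and 156 ± 5.22 CPM in primary cells. Mxi1, an antagonist of Myc, did so with smaller steps, at 27.1 ± 1.35, 22.0 ± 1.22 and 33.2 ± 1.05 CPM in spheres, monolayer and primary cells. Kdm3a, a histone demethylase, was highest in spheres at 60.6 ± 0.559 CPM, against 31.8 ± 0.629 CPM in monolayer and 40.1 ± 0.821 CPM in primary cells.

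The mitophagy receptors changed little in spheres against monolayer. Bnip3 was at 15.3, 16.5 and 15.8 CPM in spheres, 13.3, 14.6 and 14.7 CPM in monolayer, and 20.7, 20.3 and 21.4 CPM in primary cells. Primary cells were highest; spheres were 1.31-fold lower than primary cells (adjusted p = 3.83e-06). Against monolayer, Bnip3 rose by 0.16 on the log2 scale (adjusted p = 0.0262), a call lost without sphere library 2 (adjusted p = 0.0937), without monolayer library 1 (0.164), with RLE size factors (0.0611), with 2-group fits (0.103) and with DESeq2 (0.108). Bnip3l had 87.7 ± 2.78 CPM in spheres, 82.1 ± 4.95 CPM in monolayer, with overlap, and 69.7 ± 1.07 CPM in primary cells. Its rise of 0.09 over monolayer (adjusted p = 0.0413) was lost without sphere library 1 or 2 and without monolayer library 1 or 3 (adjusted p = 0.0608 to 0.248), and with RLE factors, 2-group fits or DESeq2 (0.142 to 0.204). In monolayer against primary cells Bnip3l rose by 0.24, and fell by 0.06 when scaled to total counts without passing. Other entries cover 57.9% of the exon bases of Bnip3.

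**Figure D4:**
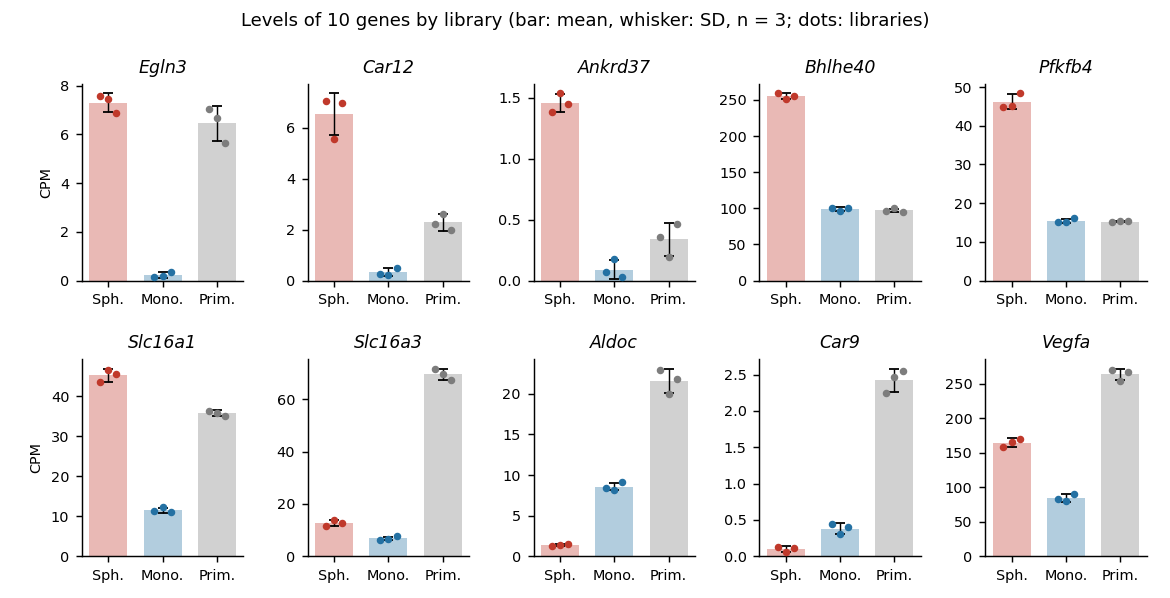
CPM of 10 genes (y axes from 0) in spheres, monolayer and primary cells; bars are means, whiskers SD (n = 3) and dots libraries. Egln3 is near 0 in monolayer, Bhlhe40 and Pfkfb4 are highest in spheres, and Slc16a3, Aldoc, Car9 and Vegfa are highest in primary cells.

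Genes of the same pathways outside the 38 gave a more mixed picture. Of 23 tested genes of glycolysis, gluconeogenesis and glucose or lactate transport, 6 rose and 12 fell in spheres against monolayer (median log2 change -0.24), 8 rose and 13 fell in spheres against primary cells (-0.30), and 10 rose and 7 fell in monolayer against primary cells (0.13). These are 26.1% and 52.2%, 34.8% and 56.5%, and 43.5% and 30.4% of the 23. Of all genes, 40.7% and 37.7%, 38.9% and 40.6%, and 34.4% and 36.9% rose and fell. Among the 23, Minpp1, a phosphatase of inositol phosphates and bisphosphoglycerate, had 239 ± 10.3 CPM in spheres, 66.3 ± 1.33 CPM in monolayer and 58.8 ± 0.995 CPM in primary cells. The transporter gene Slc2a12 had 19.95 ± 1.28, 3.72 ± 0.405 and 4.54 ± 0.098 CPM in the same groups, and Slc2a6 had 0.451 ± 0.169, 6.17 ± 0.824 and 17.9 ± 0.615 CPM. Both rises in spheres, and the fall of Slc2a6 against primary cells, passed the 2-fold test (log2 changes of 1.85, 2.43 and -5.24 by edgeR).

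A further list held 13 genes that carry pyruvate into the mitochondrion, oxidize or carboxylate it there, or regulate its oxidation. Pdk2, Pdk3 and Pdk4 among them inhibit pyruvate dehydrogenase, as Pdk1 does, so a fall does not mean the same for all 13. In spheres against monolayer 6 rose and 7 fell, Pdk2, Pdk3 and Pdk4 among the 7 (median -0.12). Against primary cells, 6 rose and 2 fell in spheres (0.11), and 6 rose and 3 fell in monolayer (0.10). These are 46.2% and 53.8%, 46.2% and 15.4%, and 46.2% and 23.1% of the 13. Of all genes, 40.7% and 37.7%, 38.9% and 40.6%, and 34.4% and 36.9% rose and fell. The 2-fold test was passed by 28%, 27.7% and 14% of all genes in these comparisons. Of the 13 genes, 1 passed it in spheres against monolayer and 0 in the other comparisons. That gene was Pcx, pyruvate carboxylase, at 22.8 ± 1.74 CPM in spheres, 64.4 ± 4.64 CPM in monolayer and 31.4 ± 1.76 CPM in primary cells.

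Of 47 further hypoxia response genes tested, 28 rose and 16 fell in spheres against monolayer (median 0.43), 25 rose and 17 fell in spheres against primary cells (0.46), and 17 rose and 22 fell in monolayer against primary cells (-0.10). These are 59.6% and 34%, 53.2% and 36.2%, and 36.2% and 46.8% of the 47. Of all genes, 40.7% and 37.7%, 38.9% and 40.6%, and 34.4% and 36.9% rose and fell. Plin2, a coat protein of lipid droplets, was at 716, 726 and 736 CPM in spheres, 173, 165 and 171 CPM in monolayer, and 137, 134 and 136 CPM in primary cells. Angptl4, an inhibitor of lipoprotein lipase, had 81.5 ± 3.13 CPM in spheres, 4.98 ± 0.541 CPM in monolayer and 0.619 ± 0.107 CPM in primary cells, a log2 change of 7.03 in spheres against primary cells (adjusted p = 6.06e-29). Both stood highest in spheres. Lox, the collagen crosslinking enzyme, went the other way at 567 ± 6.05 CPM in spheres, 4614 ± 50.7 CPM in monolayer and 2646 ± 10.4 CPM in primary cells, as did Loxl2, at 42.1 ± 1.99, 281 ± 12.1 and 141 ± 2.89 CPM. Cox4i2, a hypoxia-linked subunit of cytochrome oxidase, was at 47.8 ± 0.934 CPM in spheres, 2.18 ± 0.354 CPM in monolayer and 19.8 ± 0.795 CPM in primary cells, lowest in monolayer.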

How the data were processed

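Whole-number counts per gene were deposited by the authors for 9 libraries, without normalization. Per the submitters' processing notes, fastp 0.20.0, HISAT2 2.1.0 and featureCounts 1.6.0 were used on GRCm38; no source used here gives the annotation release, strandedness or multi-mapping setting. Listed gene lengths equal the whole span for 53245 of 53245 single-interval entries, so intron reads were counted. The 38 genes and all lists were chosen with earlier results of these data known.

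The test was the edgeR 4.0.16 quasi-likelihood F-test (R 4.3.3). It used filterByExpr (minimum count 10, leaving 15675 genes), TMM factors, 1 robust quasi-likelihood fit of group means over 9 libraries, Benjamini-Hochberg adjustment over all genes, threshold 0.05, two-sided; glmTreat tested changes beyond 2-fold. Standard errors were taken from the F statistic. The common biological coefficient of variation was 4.03%. Counts of replicate pairs were not duplicates: chi-square divided by its degrees of freedom lay between 2.53 and 9.67. Isozyme ratios used a prior count of 2. Same-numbered libraries did not deviate together (r from -0.01 to 0.03), so libraries were not paired. The test was tried on simulated data. Near-identical copies were sought with minimap2 2.31-r1302 in GENCODE M21 transcripts; exon overlaps also come from M21, and sequences from RefSeq. Outside the 38 genes, at most 3 per list and comparison with the smallest adjusted p beyond 2-fold are named. DESeq2 1.42.0, other scalings, no filter, 2-group fits, a replicate block and leaving out each library were alternatives. Precision is limited by 3 libraries a group.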

Additional observations from a re-analysis of the deposited data

How the results depend on the processing

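Directions and calls held for most results. The counts of genes called among the 38 stayed within 1.5 times under RLE size factors, no filter, 2-group fits and, for the plain test, DESeq2. Scaled to total counts, 23 in place of 13 genes rose and 1 in place of 2 fell beyond 2-fold in spheres against monolayer, and 1 in place of 5 rose in monolayer against primary cells, while log2 changes turned for Hk1 (-0.15), Pfkfb4 (-0.28), Eno2 (-0.17), Bnip3l (-0.0602) and Bhlhe40 (-0.27) in monolayer against primary cells. Leaving out 1 library at a time, 1 to 2 genes fell beyond 2-fold in spheres against monolayer, 12 to 13 rose beyond 2-fold, 30 to 32 rose at the plain test, and 4 to 5 rose in monolayer against primary cells. Pfkfb4 lay between -0.00743, without monolayer library 3, and 0.0369 in monolayer against primary cells. Near-zero changes turned sign without passing: Pfkp in spheres against monolayer (-0.0114 with RLE, -0.0131 with 2-group fits and -0.0105 with DESeq2) and Gapdh in spheres against primary cells (0.00247 with RLE, 0.000135 with total counts, 0.00137 with DESeq2, -0.0595 to 0.0253 without 1 library); the cause was not tested. The prior count of 0.5 moved Car9 over Car12 to -6.039 in spheres against primary cells.

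The replicate block gave 12265, 12439 and 11112 genes called in spheres against monolayer, spheres against primary cells and monolayer against primary cells, in place of 12286, 12472 and 11176, and 5 of 9 libraries correlated best with their own number; it changed no call among the 38 genes. Depth limits Car9 in spheres and Ankrd37 in monolayer.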
